A study of Mus musculus with 4 samples.

Results

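The genes of the circadian clock were followed in BMDCs, dendritic cells grown from the bone marrow of C57BL/6J mice: Clock, Per1, Per2, Per3, Cry1, Cry2, Nr1d1, Nr1d2, Bhlhe40 and Dbp, 10 of 21900 protein-coding genes. A member is the RefSeq gene from end to end with 2 kb on either side. The measurement was chromatin immunoprecipitation and sequencing (ChIP-seq) of H3K79me2, histone H3 dimethylated at a lysine of its core. One culture was supplied with the amino acid lysine at 18 mM for 6 h, and the other with PBS, the salt solution that serves as its vehicle. The labels give no time for PBS, and say neither at which hour cells were collected nor how many mice each culture came from. The series has 4 samples, 1 H3K79me2 library and 1 input library per condition, and the values below come from the peaks called in the 2 H3K79me2 libraries.

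The mammalian clock is a feedback loop of transcription. Clock and its partner Arntl activate genes that carry E-boxes, among them the Per and Cry genes, and the Per and Cry proteins then hold back Clock and Arntl. A second loop runs through the nuclear receptors Nr1d1 and Nr1d2, which repress Arntl, Bhlhe40 competes for E-boxes, and Dbp carries the rhythm to genes with D-boxes. Dot1l is the methyltransferase behind H3K79me2, a mark of the first part of transcribed genes. Dendritic cells and macrophages are known to have a clock of this kind.

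With 1 library per condition there is no replicate error, and nothing was tested. The clock genes were chosen by name with their covered lengths in these lists already known, so those lengths are a description, and the shares over all genes printed beside them are for reference alone. A covered length is the number of bp of a member under broad peaks. Strength is given as the authors' −log10 q of a peak, where q is the peak's p-value adjusted for multiple testing, and as the authors' fold over the local background, both read only within the list they come from. The lysine list has 9805 peaks over 5.40 Mb and the PBS list 11926 peaks over 6.78 Mb, and the depth of the libraries is unknown. A shorter peak can come with less of the mark per cell, with fewer cells that carry it, or with the library's depth and the caller's threshold. These cannot be told apart. Of 18 dendritic cell markers 7 had a peak in lysine and 11 in PBS, with 7994 bp covered in lysine and 12157 bp in PBS. Over all genes 34.0% had a peak in lysine and 36.9% in PBS, the reference for this and the marker counts below. In lysine the dendritic cell count was close to that share. Itgax, which encodes CD11c, had 431 bp in lysine and 1261 bp in PBS. The class II gene H2-Ab1 had no peak in lysine and 2602 bp in PBS, while Cd74, the class II invariant chain gene, had 2441 bp in lysine and 900 bp in PBS. Of the other markers Id2 and Csf2ra were longer in lysine, and Cd86, H2-Eb1, Flt3, Irf8, Zbtb46 and Ciita were shorter. Irf4, Spi1, Ccr7, Batf3, Cd209a, Csf2rb and H2-Aa had no peak in either. Of 18 markers of neutrophils, mast cells and basophils, T cells and B cells, 0 had a peak in lysine and 1 in PBS. Of 6 macrophage markers 1 had a peak in lysine and 4 in PBS, with 1160 bp covered in lysine and 2598 bp in PBS. Of 6 genes taken as silent, Syn1 had 376 bp in lysine and none had a peak in PBS. The part that these markers have in the results below was not tested.

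Nearly all of the clock genes carried the mark, at or close to a start or gene end, and the difference between the conditions had no common direction. In lysine 9 of 10 members had a peak, against 34.0% of all genes, and in PBS 10 of 10, against 36.9%. Among genes whose windows are as long as the members' the share was 39.0% in lysine and 42.4% in PBS. At least 500 bp were covered in 8 members in lysine, against 18.7% of all genes, and in 9 in PBS, against 21.5%. Together the members had 13582 bp covered in lysine and 15278 bp in PBS, a ratio of 0.889, where all protein-coding windows gave 0.816 and all peaks 0.796. Without Per1 the ratio was 0.769. In the other direction, the shortfall of Bhlhe40 alone (-2192 bp) was larger than that of all members together (-1696 bp). The difference in total was -1696 bp with the 2 kb flanks and turned to 840 bp more in lysine in the gene bodies alone.

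In 3 members the covered length was longer in lysine, Per1 by 1194 bp, Dbp by 840 bp and Cry1 by 523 bp. It was shorter in the other 7, with differences of -2192 bp in Bhlhe40, -547 bp in Nr1d1, -527 bp in Per2, -391 bp in Clock, -222 bp in Nr1d2, -188 bp in Cry2 and -186 bp in Per3. Longer in lysine were 16.8% of all genes, 40.6% of those covered in either list and 41.8% of those covered in both, and shorter were 24.5%, 59.3% and 58.0%. A gain of at least 500 bp was found in 3 members, against 2.87% of all genes, 6.93% of those covered in either list and 6.11% of those covered in both. A shortfall of at least 500 bp was found in 3 members (Bhlhe40, Nr1d1 and Per2), against 5.86%, 14.1% and 12.6% of the same genes. The median difference was -205 bp over the members and -64 bp over the 9070 genes covered in either list.

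**Figure D1:**
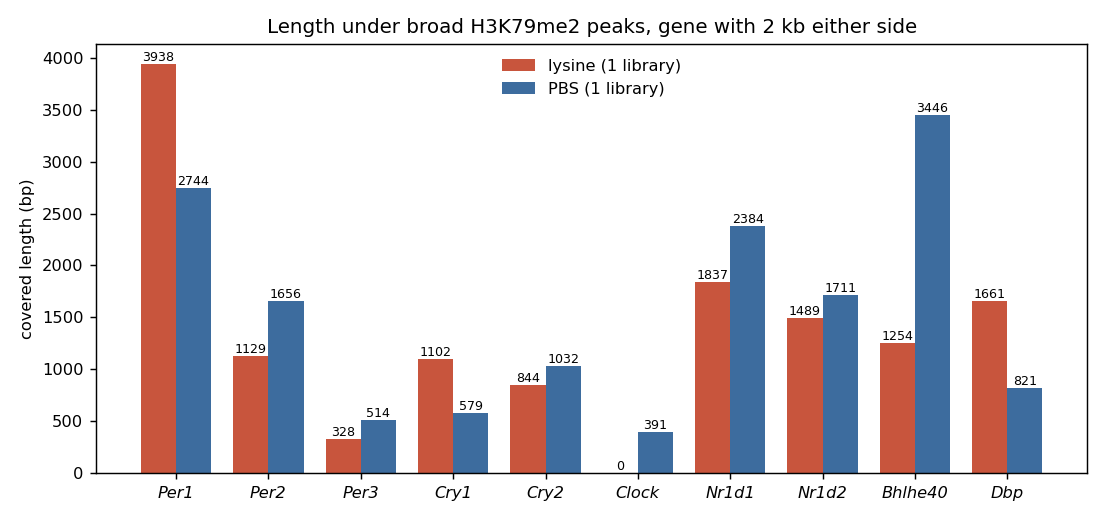
Covered length in bp (y axis, from 0) of each clock gene with 2 kb on either side, with lysine left of PBS, 1 library each and so no error bars. Per1 is the longest member in lysine (3938 bp) and Bhlhe40 in PBS (3446 bp), and Clock has no lysine peak.

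The period genes come first. Per1, Per2 and Per3 encode the repressors whose amount in the nucleus rises and falls over the day, and Per1 is also induced directly by cAMP and glucocorticoid signals. Per1 (chromosome 11, 69095108 to 69109965, plus strand) had the most covered length of the members in lysine and ranked 12 of 21900 genes there, and 130 in PBS. Its 2 lysine peaks and 3 PBS peaks all lay between 468 bp before its 5′ end and 5106 bp inside it. The remaining length of the gene, over 9 kb, had no peak in either list.

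The peak at the 5′ end of Per1 was nearly the same in both lists. It ran over chr11:69094640-69095414 in lysine, 775 bp wide (fold 10.5, −log10 q 22.0). In PBS it ran over chr11:69094648-69095360, 713 bp wide (fold 11.9, −log10 q 28.1). These are the strongest peaks on any member, at rank 69 of the lysine list and rank 32 of the PBS list by −log10 q, and the PBS peak lay wholly inside the lysine peak.

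Further inside, Per1 had a long region in lysine where PBS had a pair of shorter ones. The lysine region, chr11:69097052-69100214, was 3163 bp wide, the 9th widest of its list (fold 4.64, −log10 q 4.31). The PBS peaks lay at chr11:69096954-69097494 (541 bp, fold 4.92, −log10 q 5.08) and chr11:69098637-69100126 (1490 bp, fold 6.44, −log10 q 11.01). The 1142 bp between the PBS peaks, chr11:69097495-69098636, were the longest stretch of Per1 covered in lysine alone, out of 1292 bp in all. Covered in PBS alone were 98 bp. The gain of Per1 thus lay mainly where a pair of PBS regions stood opposite a single lysine region. Among peaks with −log10 q ≥ 5, which leave that region out, the difference of Per1 was -1969 bp.

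The narrow blocks, the denser pieces that the gapped lists give inside each broad region, show where the joined region of Per1 is dense. In lysine it held blocks of 640 bp (from 69097052), 328 bp (from 69098664) and 343 bp (from 69099872). Of the 1142 bp between the PBS peaks 197 bp lay in a lysine block and 945 bp only in the linking broad region. The first lysine block shared 443 bp with the block of the PBS peak of 541 bp, and the second lay entirely within the 474 bp block of the wider PBS peak. The third lysine block had 0 bp of PBS block under it and 255 bp of PBS broad peak. By blocks Per1 had 2086 bp in lysine and 1728 bp in PBS, a difference of 358 bp.

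The last 2 of these lysine blocks lie at the 2 Per1 starts for which RefSeq promoters (GRCm38.p6) were at hand, at 69098949 and 69100152. Both starts were inside the lysine region. The lower one was inside the PBS peak, and the upper one lay 26 bp past that peak's end. Both promoters, of 250 bases before to 50 after the start, are shown because they lie under the joined lysine region. The lower promoter was wholly covered in both lists, with 300 bp in lysine and 300 bp in PBS, and the upper one had 300 bp covered in lysine and 225 bp in PBS. The 1142 bp covered in lysine alone lie before the lower promoter. Capitals mark the E-box CACGTG, which is at 166 bases before the lower start, at chr11:69098699-69098998 (plus strand), and does not occur in the upper promoter, chr11:69099902-69100201 (plus strand).
Per1, lower start: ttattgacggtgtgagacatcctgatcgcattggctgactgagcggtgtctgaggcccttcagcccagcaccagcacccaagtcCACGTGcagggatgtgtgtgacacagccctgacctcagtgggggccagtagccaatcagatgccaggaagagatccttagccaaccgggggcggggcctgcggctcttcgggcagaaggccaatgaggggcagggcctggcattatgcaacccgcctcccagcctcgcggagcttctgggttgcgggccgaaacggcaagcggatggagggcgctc
Per1, upper start: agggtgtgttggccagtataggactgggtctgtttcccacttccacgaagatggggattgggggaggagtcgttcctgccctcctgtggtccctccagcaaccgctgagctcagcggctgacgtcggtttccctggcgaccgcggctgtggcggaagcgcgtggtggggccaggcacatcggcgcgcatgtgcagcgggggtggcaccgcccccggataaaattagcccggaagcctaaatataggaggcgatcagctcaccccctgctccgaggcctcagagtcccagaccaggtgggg

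**Figure D2:**
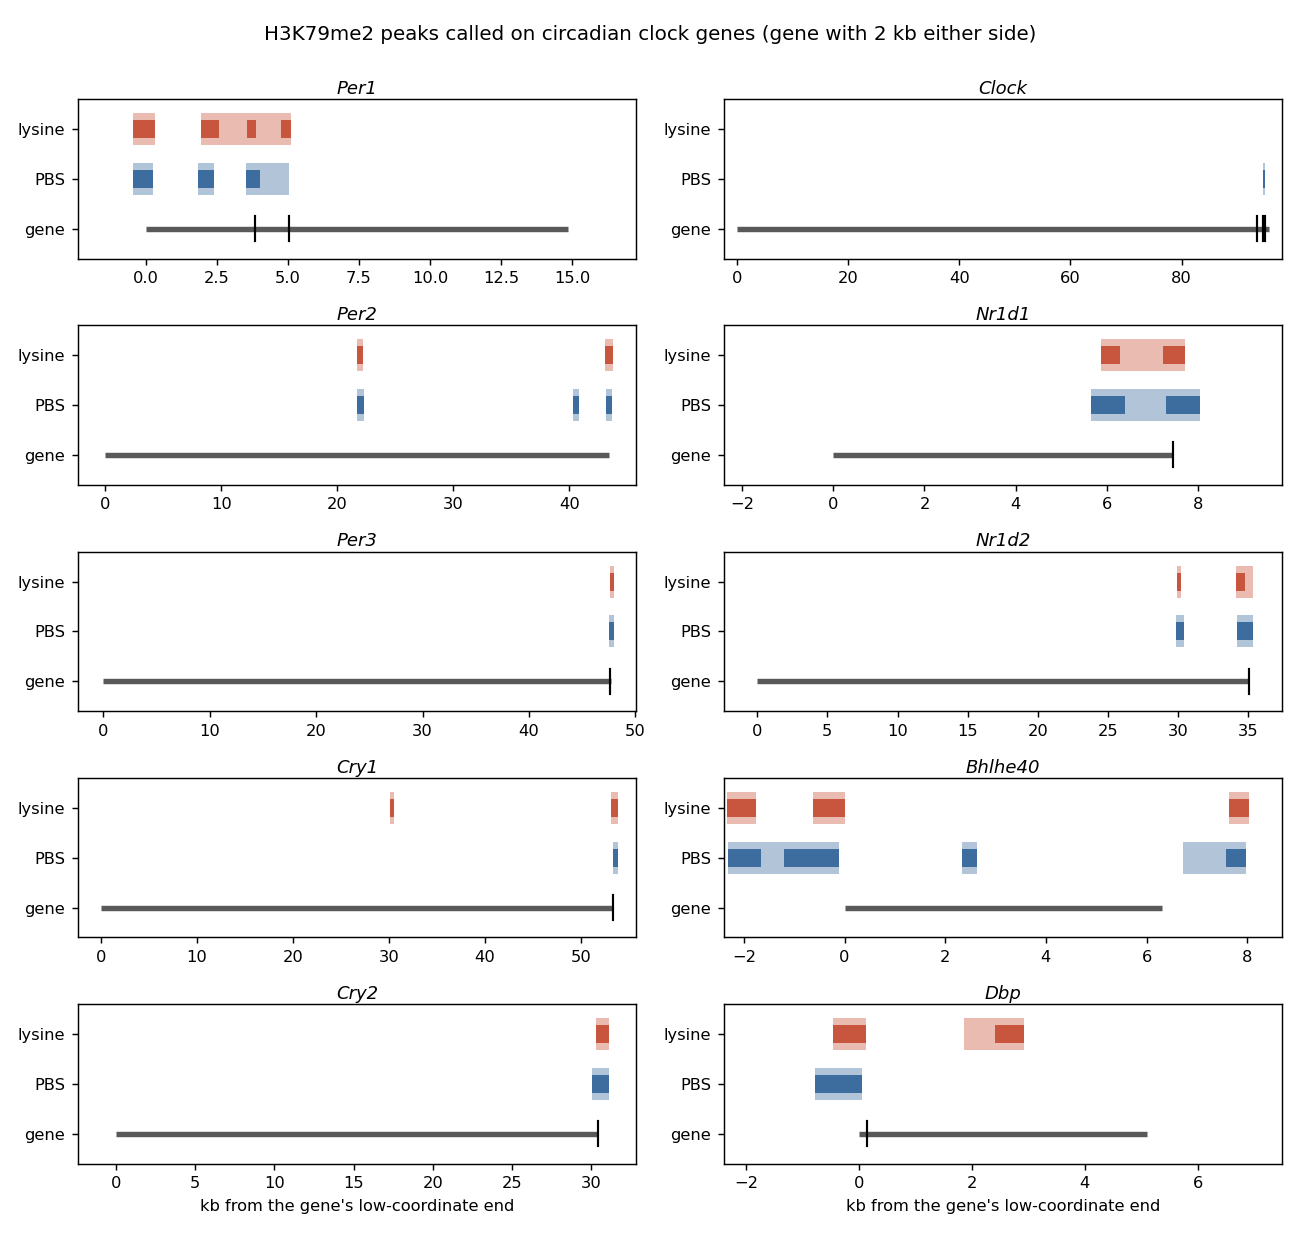
Peaks on each clock gene, by distance in kb from the gene's low-coordinate end (x axis, each panel on its own scale), with lysine above PBS. Pale bars are broad peaks, dark bars the narrow blocks in them, grey lines the gene and black ticks the RefSeq starts at hand. In Per1 the lysine region of 3163 bp spans the gap of 1142 bp between PBS peaks, and in Bhlhe40 the 1134 bp between lysine peaks lie under the PBS peak of 2215 bp.

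Per2 (chromosome 1, 91415977 to 91459351) had its strongest peak at its high-coordinate end in both lists. That peak was 614 bp wide in lysine (chr1:91459085-91459698, fold 9.08, −log10 q 16.7) and 552 bp in PBS (chr1:91459117-91459668, fold 8.36, −log10 q 13.98). A second peak, in the middle of the gene, was 515 bp wide in lysine (chr1:91437624-91438138, −log10 q 4.25) and 609 bp in PBS (chr1:91437637-91438245, −log10 q 6.01). The peaks at the end had 552 bp in common and those in the middle 502 bp. The shortfall of Per2, 1129 bp in lysine and 1656 bp in PBS, came mainly from a PBS peak with no lysine partner, chr1:91456265-91456759, of 495 bp (−log10 q 2.50). That peak also lies in the long non-coding gene Gm35591. Among peaks with a fold ≥ 4 the difference was -32 bp.

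Per3 (chromosome 4, 150997018 to 151044707, minus strand) had a single peak in each list, over its start and the end of the neighbouring gene Gm38529. It was 328 bp wide in lysine (chr4:151044663-151044990, fold 5.04, −log10 q 5.02) and 514 bp in PBS (chr4:151044529-151045042, fold 7.61, −log10 q 12.1). The lysine peak lay wholly inside the PBS peak, and it reached 2 bp past the start into the gene where the PBS peak reached 136 bp. The Per3 promoter (chr4:151044616-151044915, minus strand) is shown for its pair of D-boxes, the motif bound by Dbp and its relatives. They are in capitals, at 205 and 158 bases before the start. D-boxes were searched as TTATGTAA, its reverse complement TTACATAA and TTACGTAA.
Per3: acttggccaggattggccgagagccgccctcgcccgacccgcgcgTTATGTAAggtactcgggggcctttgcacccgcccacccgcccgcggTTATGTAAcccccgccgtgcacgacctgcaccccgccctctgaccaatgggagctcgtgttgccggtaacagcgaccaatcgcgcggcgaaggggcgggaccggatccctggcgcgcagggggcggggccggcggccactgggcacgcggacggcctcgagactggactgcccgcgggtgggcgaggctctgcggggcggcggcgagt

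The cryptochromes are the partners of the Per proteins and block Clock and Arntl directly. Cry1 (chromosome 10, 85131700 to 85185054, minus strand) had 1102 bp covered in lysine and 579 bp in PBS. Its start peak was 681 bp wide in lysine (chr10:85184851-85185531, fold 8.42, −log10 q 14.2) and 579 bp in PBS (chr10:85184968-85185546, fold 6.22, −log10 q 8.07), with 564 bp in common. The rest of the gain was a lysine peak without a PBS partner inside the gene, chr10:85161795-85162215, of 421 bp (fold 4.08, −log10 q 2.76). Among peaks with −log10 q ≥ 5 the gain was 102 bp. The Cry1 promoter (chr10:85185005-85185304, minus strand), wholly covered in both lists, is shown with its E-box CACGTG in capitals, 60 bases before the start.
Cry1: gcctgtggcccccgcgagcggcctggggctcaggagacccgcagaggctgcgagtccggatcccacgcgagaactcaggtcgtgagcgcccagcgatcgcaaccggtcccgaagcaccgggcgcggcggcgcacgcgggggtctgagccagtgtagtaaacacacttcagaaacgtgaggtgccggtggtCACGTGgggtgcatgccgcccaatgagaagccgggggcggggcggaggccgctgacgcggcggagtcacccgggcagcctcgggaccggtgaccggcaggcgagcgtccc

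Cry2 (chromosome 2, 92403646 to 92434085, minus strand) had much the same peak in both lists. This single peak, over the start, was 844 bp wide in lysine (chr2:92433925-92434768, fold 5.71, −log10 q 6.93) and 1032 bp in PBS (chr2:92433715-92434746, fold 5.69, −log10 q 6.52). They shared 822 bp, and the lysine peak reached 144 bp into the gene where the PBS peak reached 354 bp. The Cry2 promoter was wholly covered in both.

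Clock (chromosome 5, 76209868 to 76305603, minus strand), the activating bHLH-PAS factor, was the least covered member. It had no peak in lysine and 391 bp in PBS, in a single peak over 2 of its 3 RefSeq starts at hand (chr5:76304489-76304879, fold 4.55, −log10 q 3.84). That peak was slightly below the PBS list's median −log10 q of 4.03, and it also touches the non-coding gene Gm7467. No Clock peak of either list reached a −log10 q of 5, and a gene with no peak may carry H3K79me2 that the caller's threshold left out.

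Nr1d1 and Nr1d2 encode the haem-binding receptors REV-ERB alpha and beta, which repress Arntl and, in macrophages, a number of inflammatory genes. Nr1d1 (chromosome 11, 98767932 to 98775377, minus strand) had a single wide peak in each list, over its start and the first part of the gene. It was 1837 bp wide in lysine (chr11:98773804-98775640, fold 5.08, −log10 q 5.49) and 2384 bp in PBS (chr11:98773591-98775974, fold 6.07, −log10 q 8.57). The lysine peak was the 113th widest of its list and the PBS peak the 42nd of its own, and the whole lysine peak lay inside the PBS peak. Both held a pair of narrow blocks, 1 at the start and 1 a kilobase or more inside the gene, of 488 and 407 bp in lysine and 739 and 746 bp in PBS. The lysine peak thus reached less far at either end. It began 263 bp before the start, against 597 bp in PBS, and went 1573 bp into the gene, against 1786 bp in PBS. The part before the start overlaps the non-coding gene Gm31862.

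Nr1d2 (chromosome 14, 18204056 to 18239106, minus strand) had a start peak of nearly equal width, 1197 bp in lysine (chr14:18238214-18239410, −log10 q 6.14) and 1140 bp in PBS (chr14:18238274-18239413, −log10 q 7.32), with 1137 bp in common. Inside this peak the narrow block was 654 bp wide in lysine and 1140 bp in PBS. A weaker peak inside the gene was 292 bp wide in lysine (chr14:18233971-18234262, −log10 q 1.45) and 571 bp in PBS (chr14:18233883-18234453, −log10 q 2.98). Over the whole gene the difference was -765 bp by narrow blocks, against -222 bp by broad peaks. Among peaks with −log10 q ≥ 5, where the inner peak is left out, Nr1d2 was longer in lysine by 57 bp.

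Bhlhe40, also called Dec1, is a bHLH repressor that binds E-boxes and in myeloid cells also restrains Il10. It had the largest shortfall of the members, with 1254 bp covered in lysine and 3446 bp in PBS (chromosome 6, 108660629 to 108666925). Of the 21900 genes, 46 had a shortfall of this size or more. Most of its covered length lay outside the gene body, which had 1 bp under lysine peaks and 310 bp under PBS peaks.

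Below the gene, on its low-coordinate side, the broad peaks of Bhlhe40 showed the reverse of Per1. A pair of lysine peaks lay at chr6:108658292-108658872 (581 bp, −log10 q 5.06) and chr6:108660007-108660629 (623 bp, fold 5.90, −log10 q 7.998). Opposite them stood a single PBS peak, chr6:108658308-108660522, that was 2215 bp wide (fold 5.82, −log10 q 7.39) and ended 107 bp from the gene. The lysine peaks were separated by 1134 bp, the longest stretch of Bhlhe40 covered in PBS alone. The PBS peak held narrow blocks of 671 bp (from 108658308) and 1105 bp (from 108659418). Unlike in Per1, the larger part of the stretch lay in such blocks. Within 2 kb of the gene this side had 867 bp in lysine and 1894 bp in PBS, and these peaks also lie in the non-coding gene 0610040F04Rik.

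Inside Bhlhe40 a PBS peak of 310 bp (chr6:108662956-108663265, −log10 q 3.52) had no lysine partner. Above the gene, 387 bp in lysine (chr6:108668266-108668652, fold 3.99, −log10 q 2.59) stood opposite 1242 bp in PBS (chr6:108667355-108668596, fold 3.42, −log10 q 1.74). The narrow blocks there were of like size, 387 bp in lysine and 397 bp in PBS, so the PBS peak was longer by a stretch without a block. By narrow blocks the difference of Bhlhe40 was -908 bp, and among peaks with −log10 q ≥ 2 it was -950 bp.

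Dbp encodes a PAR bZIP activator, a direct target of Clock and Arntl and one of the most strongly rhythmic genes in liver. It had 1661 bp covered in lysine and 821 bp in PBS (chromosome 7, 45705100 to 45710203, plus strand). The peak at its 5′ end was 594 bp wide in lysine (chr7:45704634-45705227, fold 7.47, −log10 q 12.3) and 821 bp in PBS (chr7:45704325-45705145, fold 6.17, −log10 q 8.82), with 512 bp in common. Both also touch the neighbouring gene Car11. The gain came from a lysine peak without a PBS partner inside the gene, chr7:45706963-45708029, of 1067 bp. Its fold was 3.82, its −log10 q of 2.99 lay below the lysine median of 3.85, and it held a narrow block of 524 bp. With −log10 q ≥ 5, and likewise with a fold ≥ 4, this peak drops out and Dbp was shorter in lysine, with a difference of -227 bp.

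The members' peaks at starts or gene ends were mostly stronger than those elsewhere, within either list. Peaks that touch a promoter at hand or a gene end numbered 10 in lysine and 10 in PBS, with a median −log10 q of 7.47 (4.31 to 22.0) in lysine and 8.70 (3.84 to 28.1) in PBS. The 6 lysine peaks elsewhere had a median of 2.87 (1.45 to 5.06) and the 7 PBS peaks elsewhere one of 3.52 (1.74 to 7.39), the highest of them the wide peak below Bhlhe40. That peak ended 107 bp short of the gene. The lysine peak of 623 bp that it overlaps touched the gene by 1 bp and so counts as at a gene end. Per2 and Bhlhe40 had no promoter at hand. Of the peaks at starts or ends 10 of 10 in lysine and 9 of 10 in PBS overlapped the other list, the exception being Clock. Elsewhere it was 4 of 6 in lysine and 5 of 7 in PBS. The whole lists were not split in this way. Whether these contrasts in strength and overlap are particular to the clock genes therefore cannot be said.

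**Figure D3:**
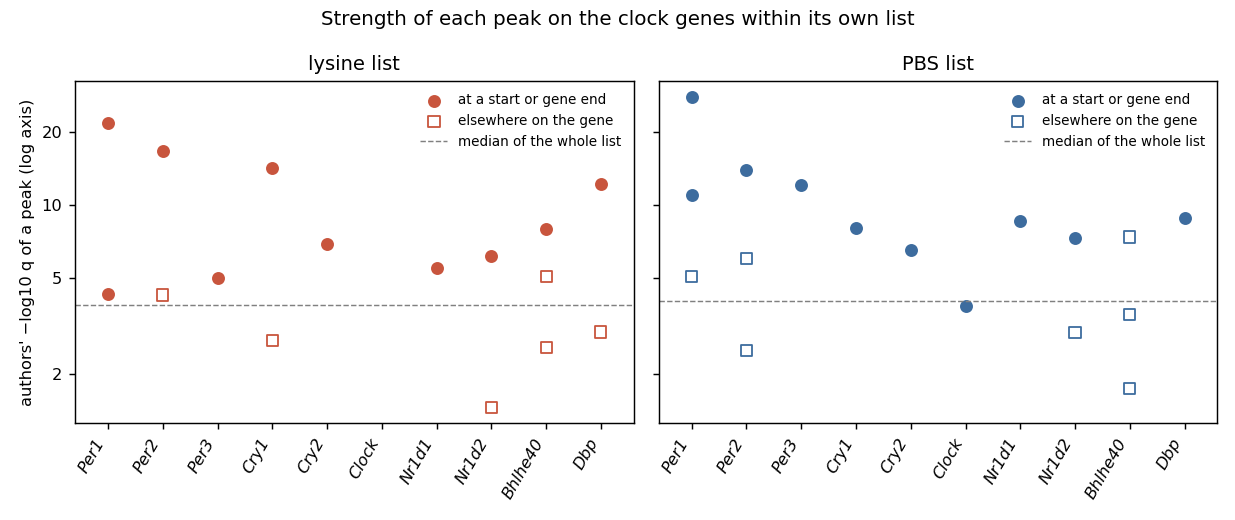
The authors' −log10 q (log axis) of every peak on the clock genes, lysine list left and PBS list right. Filled circles touch a RefSeq promoter at hand or a gene end, open squares lie elsewhere, and the dashed line is the list's own median (3.85 in lysine, 4.03 in PBS). All filled circles but that of Clock in PBS lie above the line.

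In all, 14 of 16 lysine peaks on the members overlapped a PBS peak (87.5%, 95% Clopper-Pearson interval 61.7 to 98.4), where 75.3% of the whole list did. Of 17 PBS peaks 14 overlapped a lysine peak (82.4%, 56.6 to 96.2), where 61.9% of the whole list did. The intervals cover counting error only. They take the peaks as independent, although several lie on the same gene and the genes were not drawn at random. They are therefore no test against the whole lists. The 5 peaks without a partner, in Cry1 and Dbp in lysine and in Per2, Clock and Bhlhe40 in PBS, had a −log10 q of 2.76 and 2.99 in lysine and of 2.50 to 3.84 in PBS. They are 1488 bp in lysine and 1196 bp in PBS, and 10283 bp of the members were covered in both lists. That is 75.7% of the members' length in lysine and 67.3% in PBS. In 11 cases a lysine and a PBS peak overlapped each other and no other peak, and the lysine peak was the wider in 4 of them. Over the whole lists it was the wider in 42.4% of such pairs.

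Promoters at hand were touched by a peak in 7 of 8 members in lysine, against 26.7% of 17492 genes with a promoter in the table, and in 8 of 8 in PBS, against 28.1%. Per2 and Bhlhe40 are not among these 8. Of the 11 promoters of these 8 members, 6 were wholly covered in lysine and 7 in PBS. The share of all promoters that were wholly covered is not given, so these counts have no reference. Their GC content ranged from 47.0% to 76.7% with a median of 65.7%, where all 21263 promoters had a median of 56.3%. An E-box CACGTG was found in 2 of the 11 (Per1 and Cry1) and in 7.84% of all promoters, on both strands. The D-box letters given above were found in 1 of the 11 (Per3) and in 1.03%. The cAMP element TGACGTCA, found in 2.23% of all promoters, and GTAGGTCA, an element of ROR and REV-ERB receptors found in 0.564%, were in none of the 11. The searched motifs do not overlap in these promoters, and a match is a run of letters, not a site shown to be bound.

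**Figure D4:**
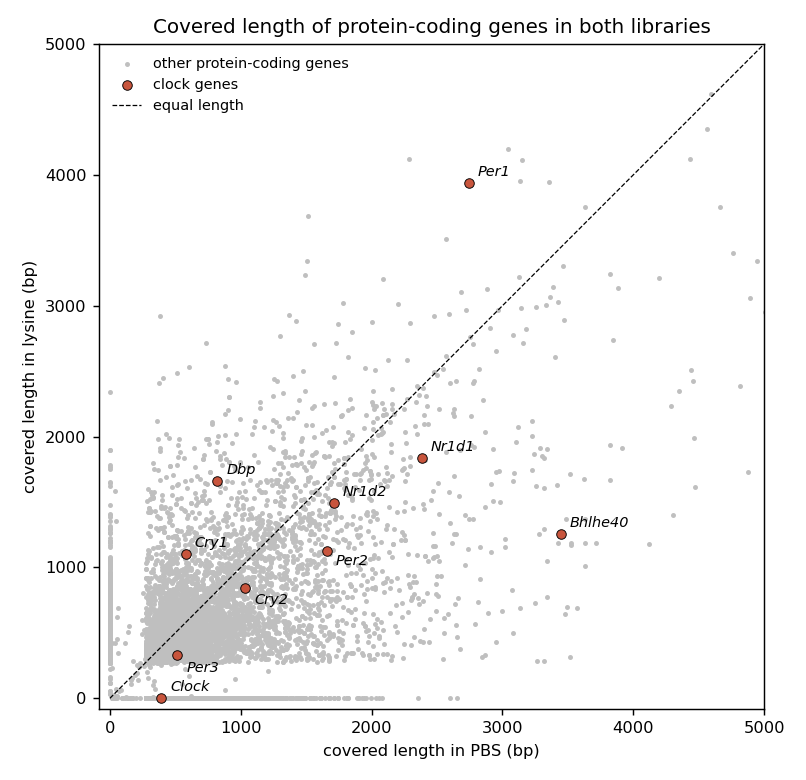
Covered length in bp of protein-coding genes with 2 kb on either side, lysine (y axis) against PBS (x axis), 1 library each. Red points are the clock genes, grey points other genes covered in either list, and the dashed line is equal length; 12 genes lie beyond the 5000 bp limit of the axes. Per1, Dbp and Cry1 lie above the line and the other members below it.

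Per1 and Bhlhe40 stand on different sides of the line of equal length, each with other genes nearby. A gain as long as that of Per1 or longer was found in 87 of the 21900 genes. The 3 genes nearest to Per1 by covered length in the 2 libraries were Tnrc6b (3954 bp in lysine and 3132 bp in PBS), Kansl1 (4200 bp in lysine and 3041 bp in PBS) and Pip5k1c (4115 bp in lysine and 3151 bp in PBS), at a distance of 388 to 444 bp. Nearest to Bhlhe40 were Pik3ap1 (1188 bp in lysine and 3426 bp in PBS), Tuba1c (1187 bp in lysine and 3524 bp in PBS) and Syk (1171 bp in lysine and 3527 bp in PBS), at 69.0 to 116 bp.

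**Figure D5:**
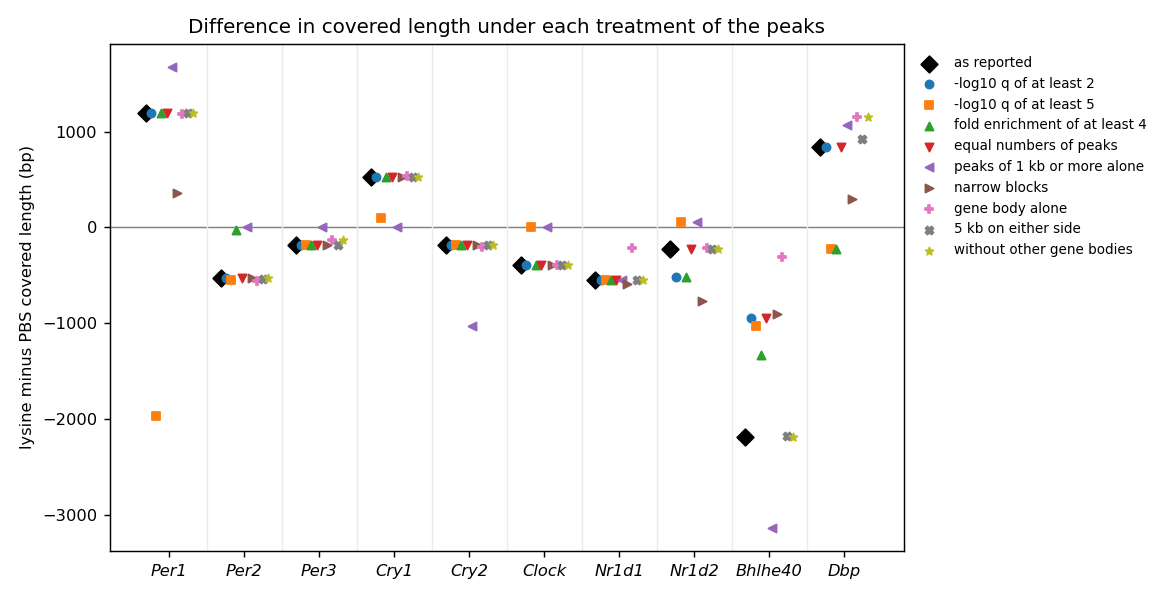
Lysine minus PBS covered length in bp (y axis) of each clock gene as reported (black diamonds) and under 9 other treatments of the peaks or the gene window (other symbols). Cry2, Nr1d1 and Bhlhe40 stay below 0 under all 9, and Per1, Dbp and Nr1d2 cross the line.

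The other clock genes were mixed too. Of 43 further genes of the clock, its kinases, ligases and cofactors, 29 had a peak in lysine and 30 in PBS, against 34.0% of all genes in lysine and 36.9% in PBS. At least 500 bp were covered in 19 in lysine and 21 in PBS, against 18.7% of all genes in lysine and 21.5% in PBS. They were longer in lysine in 13 cases, shorter in 18 and equal in 1, where 40.6% of genes covered in either list were longer and 59.3% shorter. No peak was called in either list for 11. Their total was 23530 bp in lysine and 28984 bp in PBS, a ratio of 0.812. The median difference was 0 bp over all 43, the 11 without a peak included, unlike the medians over covered genes above. A difference of at least 500 bp was upward in 3 and downward in 7, against 6.93% and 14.1% of genes covered in either list.

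The partner and other relatives of the members went both ways. Arntl, the partner of Clock, had 973 bp in lysine and 729 bp in PBS, and a difference of -57 bp among peaks with −log10 q ≥ 2. Nfil3, the repressor that opposes Dbp at D-boxes, had 2250 bp in lysine and 2157 bp in PBS, and Tef, a relative of Dbp, 715 bp in lysine and 997 bp in PBS. Ciart, a repressor of Clock and Arntl, had 623 bp in lysine and 665 bp in PBS. Cipc, which inhibits Clock, was longer in lysine, with 1073 bp in lysine and 318 bp in PBS. Timeless had 499 bp in lysine and 614 bp in PBS. Rora, the activator of Arntl, had 413 bp in lysine and 1162 bp in PBS and no peak with −log10 q ≥ 2 in either list.

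Among enzymes that set the stability of Per and Cry proteins, the kinase gene Csnk1d had 650 bp in lysine and 456 bp in PBS. The ligase gene Fbxw11 was shorter, with 315 bp in lysine and 1074 bp in PBS, and so was the kinase gene Gsk3b, with 1338 bp in lysine and 2601 bp in PBS. Of the NAD pathway, the deacetylase gene Sirt1 had a single lysine peak of 1048 bp (−log10 q 4.74) and none in PBS, while Nampt had 447 bp in lysine and 820 bp in PBS. In signalling to the clock, Creb1, which activates Per1 through cAMP elements, had no lysine peak and a PBS peak of 2036 bp (−log10 q 3.33). Its relative Crem had 1536 bp in lysine and 1413 bp in PBS. Neither Sirt1 nor Creb1 had a peak with −log10 q ≥ 5 in either list.

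Among cofactors, Ppargc1a had no lysine peak and 1467 bp in PBS, in a peak with a −log10 q of 1.93. The Per-binding RNA-binding protein gene Sfpq had 1512 bp in lysine and 2453 bp in PBS, and the zinc finger gene Klf10 1211 bp in lysine and 2228 bp in PBS. Id2, an inhibitor of bHLH factors that is also among the dendritic cell markers above, was longer in lysine, with 1659 bp in lysine and 571 bp in PBS. Ppard had 1212 bp in lysine and 803 bp in PBS, Kmt2a 872 bp in lysine and 649 bp in PBS and Ncoa3 514 bp in lysine and 425 bp in PBS, against Kdm5a with 736 bp in lysine and 835 bp in PBS, Wdr5 with 552 bp in lysine and 862 bp in PBS and Hdac3 with 503 bp in lysine and 591 bp in PBS. Of the 25 further genes with at least 500 bp in either list, 4 (Gsk3b, Sfpq, Klf10 and Id2) kept their direction under 6 other treatments of the peaks, and 7 turned under at least 1 of them. The sizes did not hold for these 4 either. The difference of Id2, 1088 bp, was 41 bp with −log10 q ≥ 5 and with a fold ≥ 4, and that of Sfpq, -941 bp, was -144 bp under 5 of the 6 treatments. By narrow blocks that of Klf10 was -83 bp, against -1017 bp, and that of Gsk3b -322 bp, against -1263 bp.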

How the data were processed

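Libraries of H3K79me2 ChIP from BMDCs were read from both ends, per the labels' protocols. Among the tools in the submitters' processing notes are MACS2 2.1.2 for peaks and Bowtie2 2.3.4.1 for alignment, with cutadapt 1.18, Trimmomatic 0.38, Picard, FastQC and ChIPseeker, and the genome is GRCm38. Neither settings nor thresholds are stated, and the input libraries are not analysed here. The deposited lists are per sample and have no header, and their columns fit the format of a MACS2 broad call. Each peak has a fold enrichment deposited as a linear ratio, a p and a q deposited as −log10 values, and a deposited score that equals 10 times its −log10 q, rounded down, in all but 1 lysine peak. The gapped lists of the authors repeat every broad region and add its narrow blocks, and blocks of 1 bp, which mark a region's end, were left out.

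The members and gene lists were chosen with earlier results of these data known. Named are the 10 members with all their peaks, further clock genes with at least 500 bp in either list, save 1 that is not reported here, and the 3 genes nearest by covered length to the member with the largest gain and to that with the largest loss. Of 44 further entries 43 are separate genes, since Chrono is a synonym of Ciart. Genes, starts and promoter sequences are RefSeq's of GRCm38.p6, and 8 of 10 members matched a promoter. Covered lengths were computed with Python 3.11.15, numpy 2.4.6 and pandas 2.3.3, intervals with scipy 1.17.1 and figures with matplotlib 3.10.9. They were checked against bedtools 2.31.1, with 0 differences, and on simulated peaks over 21900 genes, where 200 of 200 added lengths were recovered. Alternatives were peak strength, number and width, narrow blocks, other windows and another overlap. The depth per sample is unknown.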

Additional observations from a re-analysis of the deposited data

How the results depend on the processing

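Of 90 member differences under the alternatives 5 turned. With −log10 q ≥ 5 these were Per1 (-1969 bp), Nr1d2 (57 bp) and Dbp (-227 bp). Dbp also turned with a fold ≥ 4 (-227 bp), and Nr1d2 when narrower peaks than 1 kb were dropped (57 bp). Cry2, Nr1d1 and Bhlhe40 kept their direction under all 9 alternatives, and Per2, Per3, Cry1 and Clock had a difference of 0 bp under at least 1. The members' total difference, -1696 bp, was -746 bp with −log10 q ≥ 2 and -4532 bp with −log10 q ≥ 5. It was -1705 bp with a fold ≥ 4, -454 bp when both lists had the same number of peaks and -1918 bp when peaks under 1 kb were dropped. It was -2377 bp by narrow blocks, -1603 bp with 5 kb on either side, -1335 bp without other gene bodies and 840 bp in gene bodies alone. Most of the turn in gene bodies alone lay in Bhlhe40, at -2192 bp with the flanks and -309 bp in the body. The cause of the differences was not tested. Dropping peaks under 1 kb, 4 members had a peak in lysine and 5 in PBS, and 3 were shorter in lysine. Counting only differences of at least 500 bp, 3 were shorter. With −log10 q ≥ 5, 10 of 10 lysine peaks (100%) overlapped the PBS list, while 9 of 12 PBS peaks overlapped the lysine list. With −log10 q ≥ 2 it was 12 of 15 lysine peaks and 12 of 16 PBS peaks. When at least 50% of a peak had to be covered, it was 14 of 16 lysine peaks and 12 of 17 PBS peaks. As reported above, 14 of 16 lysine peaks and 14 of 17 PBS peaks overlapped the other list, where 75.3% and 61.9% of the whole lists did. For the counts by −log10 q, by 50% coverage and without peaks under 1 kb, no shares over all peaks or genes are given. Those counts therefore have no reference. No read counts are given, so what depth limits cannot be stated. No paired analysis was possible because each condition has 1 library.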

Other observations

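Peaks around the clock genes, from 2 to 20 kb outside them, were looked at after the members' values were seen. Around Per1 this zone had 1632 bp covered in lysine and 517 bp in PBS, in separate peaks at other genes. A lysine peak of 458 bp at Vamp2, a vesicle SNARE gene (chr11:69088276-69088733, −log10 q 3.03), had no PBS partner. At Hes7, a bHLH gene of somite formation, a region of 1174 bp in lysine (chr11:69123593-69124766, −log10 q 3.84) stood opposite 517 bp in PBS (chr11:69123478-69123994, −log10 q 12.5). Both of these also overlap tRNA genes.

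Peaks near the other members were as follows. Ilkap and Hes6 beside Per2 had peaks of 423 and 436 bp in lysine and 444 and 445 bp in PBS. Vamp3 beside Per3 had 591 bp in lysine and 654 bp in PBS. The peaks over Rpl18 and Sphk2 beside Dbp were 444 and 439 bp wide in lysine and 453 and 528 bp in PBS. Near Nr1d1 a lysine peak of 365 bp outside any gene and a PBS peak of 314 bp at Msl1, of which 292 bp lie in the zone, did not overlap. Cry1 had a peak of 329 bp outside any gene in PBS alone, and nothing was called in this zone around Cry2, Clock and Nr1d2 in either list. Below Bhlhe40 the peaks that cross into the zone covered 337 bp of it in lysine and 321 bp in PBS. Over all 10 members the zone had 4667 bp covered in lysine and 3983 bp in PBS, a ratio of 1.17. It was longer in lysine around 3 members and shorter around 4. The surplus around Per1 alone, 1632 bp in lysine against 517 bp in PBS, was larger than that of all members together (684 bp). The cause of these differences was not tested.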
